A study of Coturnix japonica with 19 samples.

Results

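Hemoglobin and red cell transcripts were followed in the pituitary glands of 19 Japanese quail (Coturnix japonica). Members were taken by gene symbol and were the 4 hemoglobin chains HBA1, HBAD, HBBA and HBE1 together with SLC4A1 and CA2. These are 6 of the 19562 gene symbols listed, and all 6 had counts. Each library was polyadenylated RNA of 1 bird, read as full-length PCR-amplified cDNA on a nanopore sequencer. Adults under 16L (16 h of light a day, n = 5) and adults under 8L (8 h, n = 5) were males that entered the study at 5 weeks of age. They first had 2 weeks of long days and then short days, and the 8L birds were taken after 8 weeks of 8L. The 16L adults then returned to long days for 8 weeks, so their light history and age differed from the 8L adults and cannot be told apart from photoperiod. Juveniles had 5 days of long light after hatching and 5 days of 16L (n = 4) or 8L (n = 5), and were taken on posthatch day 10. By the study's listing juvenile 16L replicates 2 and 4 and juvenile 8L replicate 2 were females and the other juveniles males. W-linked HINTW had counts in 1 juvenile listed as male (16L replicate 3) and none in 1 listed as female (16L replicate 2). No genotype or strain was given. The gland with its pars distalis was taken from the bony pocket that holds it (the sella turcica).

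Hemoglobin carries oxygen and is built from alpha-type and beta-type chains. Bird red cells keep a nucleus and hold RNA in the blood. In chickens HBA1 is the main adult alpha chain (alpha-A), HBAD is the minor alpha chain (alpha-D) and HBBA is the adult beta chain (beta-A). HBE1 carries the symbol of an epsilon chain, a beta-type chain. Another epsilon symbol, HBE, was listed apart, so which beta-type chain HBE1 stands for was not known. SLC4A1 (band 3) exchanges chloride and bicarbonate across the red cell membrane, and CA2 (carbonic anhydrase) hydrates carbon dioxide. CA2 is also known in osteoclasts and in glia.

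Depth differed, with 970137 to 4796665 counts a library among adults under 16L and 128509 to 1969096 under 8L. Juvenile libraries held 91030 to 542633 counts under 16L and 90599 to 1074139 under 8L. Adult 8L replicate 2, juvenile 16L replicates 1 and 2 and juvenile 8L replicates 3 and 4 were under 200000 counts. Levels are given as CPM, counts per 1000000 of the library total scaled by a composition factor (TMM). Juveniles also held transcripts of bone. The summed level of 13 osteoblast markers had a median of 41.1 CPM in adults (lowest 31.9) and ran from 114 to 15873 CPM in juveniles. Every juvenile was above every adult in this sum. The sum was above 2000 CPM in 4 juveniles, 16L replicates 1 and 2 and 8L replicates 1 and 5. IBSP, SP7 and DMP1 were at 0 in all adults, and none of the 13 markers was at 0 throughout the juveniles. Of 11 pituitary endocrine markers none was at 0 in either age, and their sum was 19090 to 63110 CPM in adults and 3386 to 103075 CPM in juveniles. The lowest sums were in juvenile 8L replicates 1 and 5 (3386 and 8610 CPM), both below every adult. Juvenile 8L replicate 5 was also the bird with the highest HBA1, HBAD, HBBA, SLC4A1 and CA2.

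HBE1 was higher in juveniles under each photoperiod and was the member with the largest age difference. Under 16L the adults had 0, 2, 3, 1 and 4 HBE1 counts in replicates 1 to 5, and the 4 juveniles had 79, 15, 26 and 6. Under 8L the adults had 2, 3, 5, 1 and 3 counts, and the 5 juveniles had 95, 140, 8, 67 and 154. Every juvenile was above every adult once depth was taken into account. The share of all genes separated in this way is not given here, for HBE1 or for the other members. Adult levels were 0 to 19.4 CPM and juvenile levels 24.4 to 644.5 CPM. The highest adult, 8L replicate 2, rested on 3 counts in a library of 128509.

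Juveniles had more HBE1 than adults by 6.83 ± 0.94 under 16L (log2 fold change ± SE, n = 4 and 5, edgeR quasi-likelihood test, adjusted p = 0.00900) and by 6.49 ± 1.02 under 8L (n = 5 and 5, edgeR, adjusted p = 0.0278). Fitted over both photoperiods the difference was 6.61 ± 0.71 (edgeR, adjusted p = 2.31e-05). Adjusted p here is the Benjamini-Hochberg value over all genes tested, and a gene was called when it was under 0.05. HBE1 was the 1 member called under 16L and under 8L, where 0.211% and 0.118% of all genes tested were called higher in juveniles. Among adults alone HBE1 did not pass the filter on low counts. It entered the age fits through the juveniles, so it could be called only as higher in them. Without the filter HBE1 was called as well (edgeR, adjusted p = 0.000240 under 16L and 0.00161 under 8L). The 8L call was lost when any of 7 libraries was left out (adult 8L replicates 1, 3, 4 and 5 and juvenile 8L replicates 1, 4 and 5; adjusted p 0.0518 to 0.157), while the fold change stayed between 6.04 and 6.56. The difference over both photoperiods was called in all 30 alternatives run, with fold changes of 5.79 to 6.93.

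**Figure D1:**
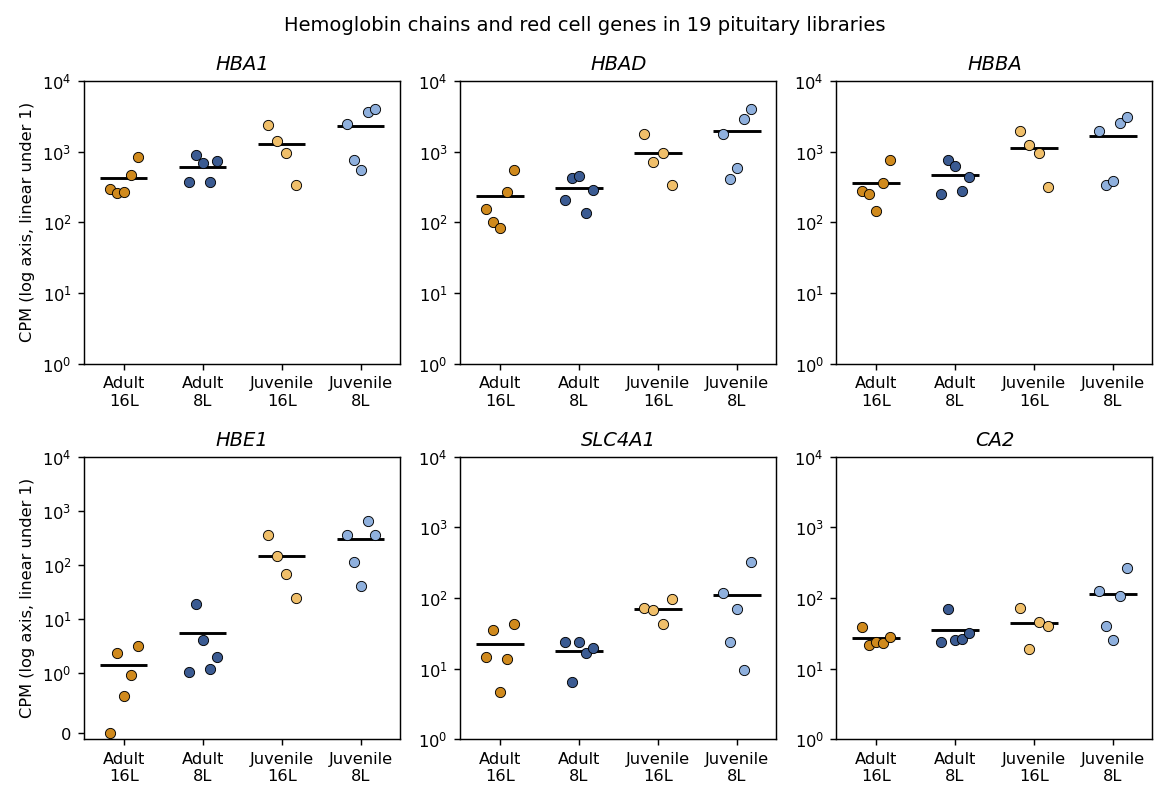
Level of each gene in CPM (log axis, linear under 1) in each of 19 birds by group, with each point 1 bird and each bar the group mean. HBE1 was at 0 to 19.4 CPM in adults and 24.4 to 644.5 CPM in juveniles with no overlap, while for the other 5 genes the 2 ages overlapped.

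HBA1, HBAD and HBBA, the chains of adult blood, were also more abundant in most juveniles, and here the ages overlapped. HBA1 was at 297, 258, 267, 471 and 837 CPM in the 16L adults and at 376, 893, 688, 371 and 729 CPM in the 8L adults. It was at 2403, 1434, 972 and 341 CPM in the 16L juveniles and at 2464, 754, 548, 3694 and 3980 CPM in the 8L juveniles. Juvenile 16L replicate 1 and juvenile 8L replicates 1, 4 and 5 were the 4 highest birds, and juvenile 16L replicate 4 was below several adults. HBAD was 82.3 to 558 CPM in adults and 337 to 4040 CPM in juveniles. HBBA was 146 to 770 CPM in adults and 313 to 3106 CPM in juveniles. The juveniles above every adult were 6 of 9 for HBA1, 7 of 9 for HBAD and 6 of 9 for HBBA.

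Within 1 photoperiod none of these 3 chains passed the test. Under 16L the log2 fold changes of juveniles over adults were 1.64 ± 0.54 for HBA1, 2.07 ± 0.62 for HBAD and 1.69 ± 0.56 for HBBA (± SE, edgeR, adjusted p 0.237, 0.172 and 0.237). Under 8L they were 1.93 ± 0.59, 2.70 ± 0.66 and 1.84 ± 0.65 (edgeR, adjusted p 0.433, 0.346 and 0.518). HBAD passed under 8L without juvenile 8L replicate 2, the listed female of that group (edgeR, 2.96, adjusted p = 0.0465).

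Over both photoperiods 5 of the 6 members were called higher in juveniles, where 1.14% of all genes tested were, and the median log2 difference of all genes was -0.18. The calls, from edgeR, were HBE1, HBAD at 2.38 ± 0.47 (adjusted p = 0.00719), HBA1 at 1.76 ± 0.41 (adjusted p = 0.0229), SLC4A1 at 2.13 ± 0.52 (adjusted p = 0.0314) and HBBA at 1.73 ± 0.44 (adjusted p = 0.0406). CA2 was not called at 1.29 ± 0.42 (edgeR, adjusted p = 0.140). In bulk tissue more red cells and more RNA per red cell cannot be told apart.

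The calls other than HBE1 were lost in some smaller sets of libraries, which also held fewer birds. Without the 5 libraries under 200000 counts only HBE1 was called, and HBAD (2.28), SLC4A1 (2.31), HBA1 (1.47) and HBBA (1.56) had edgeR adjusted p of 0.0577, 0.0516, 0.134 and 0.153. Without the 4 juveniles with the most bone transcripts HBE1 was still called (5.79 ± 0.71, edgeR, adjusted p = 9.09e-05), while HBAD (1.76), SLC4A1 (1.19), HBA1 (1.04) and HBBA (0.96) had adjusted p of 0.120, 0.353, 0.376 and 0.477. Leaving out 1 library at a time kept HBAD called throughout. HBA1 was lost without adult 8L replicate 1 or 4, juvenile 16L replicate 1 or juvenile 8L replicate 5 (edgeR, adjusted p 0.0531 to 0.0716). HBBA was lost with 13 of the 19 libraries, those being adult 16L replicates 1 to 4, adult 8L replicates 1, 3, 4 and 5, juvenile 16L replicates 1 and 2 and juvenile 8L replicates 1, 4 and 5 (edgeR, adjusted p 0.0552 to 0.103).

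**Figure D2:**
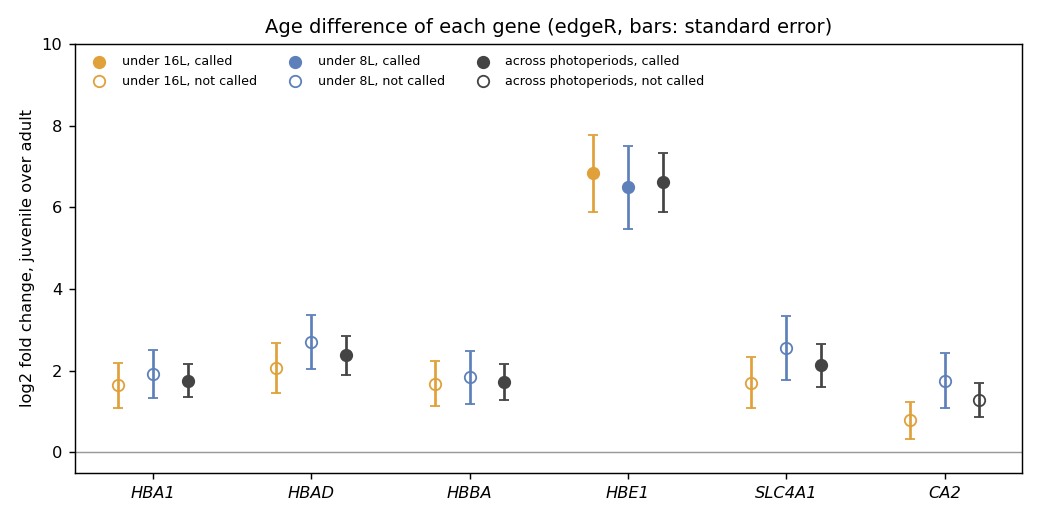
Log2 fold change of juveniles over adults for each gene under 16L, under 8L and over both photoperiods, with bars of 1 SE from edgeR and filled points for an adjusted p under 0.05. HBE1 was at 6.49 to 6.83 and called in each comparison, while the other called genes were called only over both photoperiods, at 1.73 to 2.38.

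SLC4A1, the membrane anion exchanger, was at 4.75 to 42.7 CPM in adults and 9.62 to 322 CPM in juveniles, with 7 of 9 juveniles above every adult. In the 16L juveniles it was at 72.4, 67.4, 42.8 and 97.5 CPM, and in the 8L juveniles at 119, 24.3, 71.0, 9.62 and 322 CPM. Juvenile 8L replicate 5 was far above the rest, and juvenile 8L replicate 4, which had the most HBE1 and the second most HBA1, had 1 SLC4A1 count. The fold change of juveniles over adults was 1.71 ± 0.61 under 16L and 2.56 ± 0.78 under 8L (log2 ± SE, edgeR, adjusted p 0.292 and 0.432). The call over both photoperiods was lost without any of adult 16L replicates 1, 3 and 4, adult 8L replicates 1, 3, 4 and 5, juvenile 16L replicate 4 and juvenile 8L replicate 5 (edgeR, adjusted p 0.0503 to 0.0904), and the fold change was 1.59 without the last of these. SLC4A1 was listed with 8 transcripts, of which 7 were within 1 count of the highest in every library. The sum used here was 536 counts over all libraries and the highest transcript alone had 73. The level of this gene thus depends on whether reads were split or counted repeatedly, which was not known. With the highest transcript alone SLC4A1 had too few counts to be tested between ages, so its call rests on the sum.

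CA2 was at 21.4 to 71.2 CPM in adults and 19.3 to 270 CPM in juveniles. The 16L juveniles had 72.4, 19.3, 45.5 and 40.6 CPM, which lay around the adult range. In the 8L juveniles replicates 1, 4 and 5 had 106 to 270 CPM and replicates 2 and 3 had 39.6 and 25.4 CPM. The log2 fold change of juveniles over adults was 0.79 ± 0.45 under 16L and 1.76 ± 0.67 under 8L (± SE, edgeR, adjusted p 0.649 and 0.518). Counting the higher of its 2 transcripts in place of their sum passed over both photoperiods (edgeR, adjusted p = 0.0121). The summed osteoclast markers were 6.47 to 60.8 CPM in adults and 8.03 to 536 CPM in juveniles, with MMP9 and ATP6V0D2 at 0 in all adults. The glial markers summed to 6.47 to 103 CPM in adults and 16.1 to 1000 CPM in juveniles, with MOG at 0 in all adults. The part of osteoclasts and glia in the CA2 values was not tested.

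The makeup of hemoglobin transcripts was read from counts within a library, which do not depend on scaling between libraries. Hemoglobin protein was not measured. Transcript lengths were not known, so levels of different chains are not compared, only their ratio between groups. HBE1 was 24 of 14804 chain counts in adults, 0.162% (exact 95% interval 0.104% to 0.241%), and 590 of 13050 in juveniles, 4.52% (4.17% to 4.89%). These intervals cover counting error only. The share in adults includes any reads of the other chains assigned to HBE1 in those libraries. By bird the adult share averaged 0.149% ± 0.144 under 16L (SD, n = 5) and 0.313% ± 0.342 under 8L (n = 5), and the juvenile share was 3.58% ± 1.51 under 16L (n = 4) and 4.99% ± 2.01 under 8L (n = 5). In adult 16L replicate 1 HBE1 had 0 of 1074 chain counts, for which the exact interval reached 0.343% and a limit of 3 counts is 0.279%.

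The share was 5.50%, 4.07%, 2.34% and 2.40% in 16L juveniles 1 to 4 and 5.51%, 7.05%, 2.60%, 6.61% and 3.18% in 8L juveniles 1 to 5. All 9 were above the highest adult share of 0.920%, in 8L replicate 2 (3 of 326 counts, exact interval 0.190% to 2.67%). Among the juveniles the highest share was in 8L replicate 2, which had the lowest osteoblast sum (114 CPM). The next lowest osteoblast sums were in 16L replicates 4 and 3 and 8L replicate 3 (138, 209 and 421 CPM), whose shares were the 3 lowest of the juveniles. Of the beta-type counts, HBE1 plus HBBA, HBE1 made up 0.406% ± 0.339 and 0.882% ± 0.886 in adults under 16L and 8L and 9.93% ± 4.02 and 16.2% ± 6.71 in juveniles (SD, n = 5, 5, 4 and 5).

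**Figure D3:**
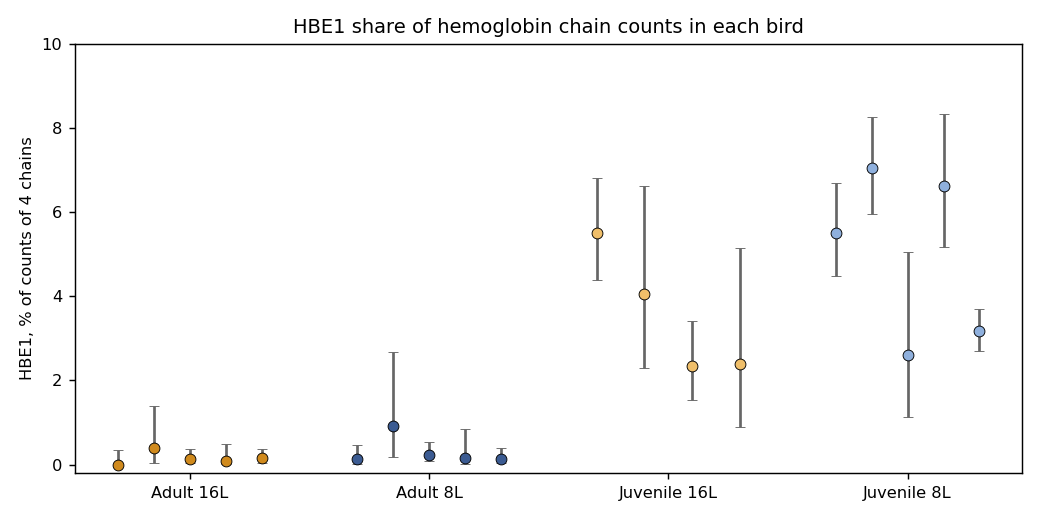
HBE1 as a percentage of the counts of 4 hemoglobin chains in each bird, with exact 95% binomial intervals that cover counting error only. The 10 adults were at 0 to 0.920% and the 9 juveniles at 2.34% to 7.05%.

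The ratio of HBE1 to the sum of the other 3 chains was higher in juveniles than in adults by 4.60 under 16L and by 4.16 under 8L on the log2 scale, with 0.5 added to each count. Every juvenile was above every adult in both photoperiods. The exact permutation p (two-sided) was 0.0159 under 16L and 0.00794 under 8L, each the smallest that these group sizes allow, and the Benjamini-Hochberg value over the 32 ratio tests was 0.0564 for both. None of the 32 tests passed 0.05 after adjustment. Against single chains the difference was 4.82 and 4.32 for HBA1, 4.11 and 3.58 for HBAD and 4.68 and 4.48 for HBBA (16L and 8L, log2 scale), each without overlap and with the same adjusted p. Without the 4 juveniles with the most bone transcripts the ratio to the other 3 chains differed by 4.10 under 16L and 4.28 under 8L, still without overlap.

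Among alpha chains, HBAD per HBA1 count was 0.309 to 0.669 in adults and 0.497 to 1.07 in juveniles. HBAD made up 32.5% ± 6.61 and 32.6% ± 5.50 of the alpha counts in the adults of 16L and 8L (SD, n = 5 for both). In juveniles it made up 43.9% ± 7.92 under 16L (n = 4) and 44.6% ± 6.77 under 8L (n = 5). The log2 ratio was 0.71 higher in juveniles under 16L (exact permutation p = 0.0794, adjusted 0.231) and 0.73 higher under 8L (exact permutation p = 0.0238, adjusted 0.0762), so the difference was of like size at both photoperiods and passed at neither. Juvenile 16L replicate 2 and juvenile 8L replicate 2, at 0.497 and 0.537, lay within the adult range.

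HBBA per HBA1 count was 0.548 to 0.982 in adults. In juveniles it was 0.812, 0.879, 0.992 and 0.917 under 16L and 0.809, 0.443, 0.713, 0.680 and 0.780 under 8L. Every 16L juvenile was above every 8L juvenile, with a gap of 0.812 to 0.809 between the nearest birds. The log2 difference was 0.42 (exact permutation p = 0.0159, the smallest possible, adjusted 0.0564). In adults the difference between photoperiods was 0.11 (exact permutation p = 0.563, adjusted 0.671).

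**Figure D4:**
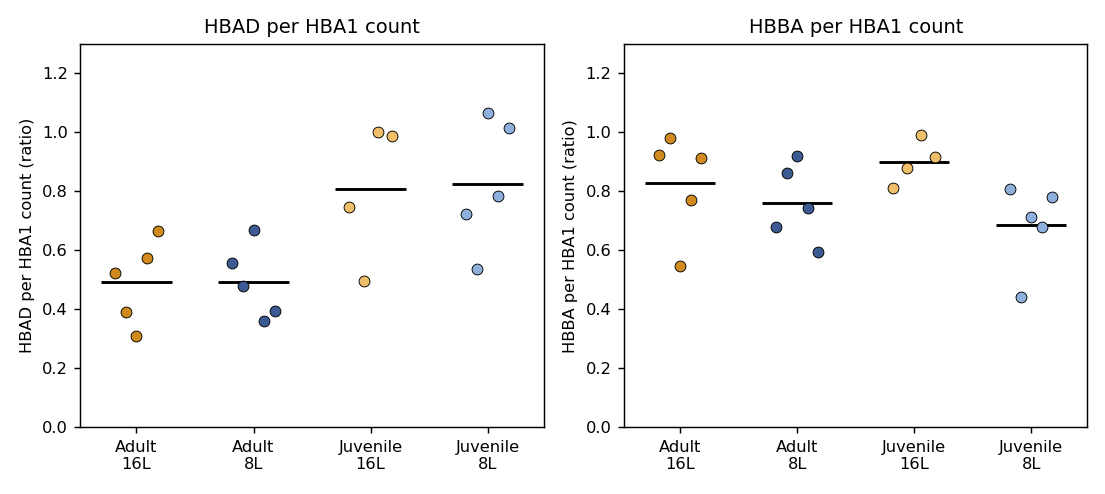
HBAD counts per HBA1 count and HBBA counts per HBA1 count in each bird by group (linear axes from 0), with bars for group means. HBAD per HBA1 was 0.309 to 0.669 in adults and 0.497 to 1.07 in juveniles, and HBBA per HBA1 in 16L juveniles (0.812 to 0.992) lay above that in 8L juveniles (0.443 to 0.809).

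The ratio of SLC4A1 to the 4 chains differed between ages by 0.28 under 16L and by 0.00 under 8L, and that of CA2 by -1.02 and -0.45 (log2, juveniles minus adults). Exact permutation p for these 4 differences was 0.682, 1, 0.159 and 0.190 (adjusted 0.753, 1, 0.423 and 0.435). The SDs of the log2 ratio of SLC4A1 in juveniles were 1.39 under 16L and 1.92 under 8L, so a difference of either sign was within the spread.

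No member passed the test between photoperiods. The 16L minus 8L log2 difference in adults was -0.52 ± 0.38 for HBA1, -0.38 ± 0.49 for HBAD, -0.39 ± 0.43 for HBBA, 0.15 ± 0.53 for SLC4A1 and -0.24 ± 0.38 for CA2 (± SE, edgeR, adjusted p near 1). HBE1 did not pass the filter on low counts there, and gave -1.29 without a filter and -1.26 with all 4 groups in 1 fit (edgeR, adjusted p 0.888 and 1). In juveniles it was -0.76 ± 0.71 for HBA1, -0.97 ± 0.72 for HBAD, -0.50 ± 0.74 for HBBA, -0.99 ± 0.90 for HBE1, -0.53 ± 0.82 for SLC4A1 and -1.26 ± 0.72 for CA2. The members called were 0 in adults (0.0267% of all genes), 0 in juveniles (0%), 0 with both ages together (0.014%) and 0 for the interaction of age and photoperiod (0%). With both ages together the smallest member p was 0.0790, for CA2, and DESeq2 called none of the members in these 4 comparisons. In juveniles edgeR had 44 genes with an unadjusted p under 0.05 and DESeq2 called 0, and for the interaction these were 414 and 7. The fold change of HBE1 in juveniles was -2.56 ± 0.85 without the libraries under 200000 counts (edgeR, adjusted p = 0.976), which left 2 juveniles under 16L and 3 under 8L. A p that misses the threshold does not show that the photoperiods were alike.

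Across birds the chains moved together. Between HBA1 and HBBA Pearson's r of log2 CPM was 0.93 over 10 adults and 0.97 over 9 juveniles (Spearman's rho 0.94 and 0.98, adjusted permutation p at most 0.000606). Between HBA1 and HBAD it was 0.94 and 0.95 (rho 0.92 and 0.95, adjusted permutation p at most 0.00123). Without the 2 farthest birds these 4 values of r were 0.87, 0.95, 0.91 and 0.92. HBE1 followed HBA1 in juveniles (r = 0.97, rho = 0.97, permutation p = 0.000171, adjusted 0.000437), and r was 0.97 without the 2 birds farthest from the median. In adults, where HBE1 had at most 5 counts, r was 0.70 (rho = 0.64, permutation p = 0.00802 for r and 0.0559 for rho, adjusted 0.0147 and 0.0769), and 0.58 without the 2 farthest birds. For SLC4A1 and HBA1 r was 0.12 in adults and 0.06 in juveniles (rho 0.09 and 0.18, permutation p for r 0.731 and 0.869). For CA2 and HBA1 r was 0.75 in juveniles (rho = 0.77, permutation p = 0.0183 and 0.0214, adjusted 0.0251 and 0.0336), with 0.76 without the 2 farthest birds, and 0.50 in adults (rho = 0.60, permutation p = 0.137 and 0.0737). The difference between ages in these relations was not tested. All pairs share a library and its scaling, and 11 relations were computed.

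In juveniles HBA1 also moved with the summed osteoblast markers (r = 0.82, rho = 0.78, permutation p = 0.0108 and 0.0172, adjusted 0.0170 and 0.0316, n = 9). Without the 2 farthest birds r was 0.76. The osteoblast sums of 16L juveniles 1 to 4 were 4688, 2522, 209 and 138 CPM and those of 8L juveniles 1 to 5 were 15873, 114, 421, 1202 and 12946 CPM. The part of bone and marrow tissue in the chain levels was not tested. Juvenile 8L replicate 4 had the second highest HBA1 at 3694 CPM with 1202 CPM of osteoblast markers. The 4 juveniles with the lowest osteoblast sums had HBE1 at 24.4, 40.6, 69.6 and 113 CPM, against at most 19.4 CPM in adults. Their osteoblast sums were also above those of every adult. No juvenile was thus at the adult level of bone transcripts, and HBE1 was not compared between ages at equal bone levels.

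**Figure D5:**
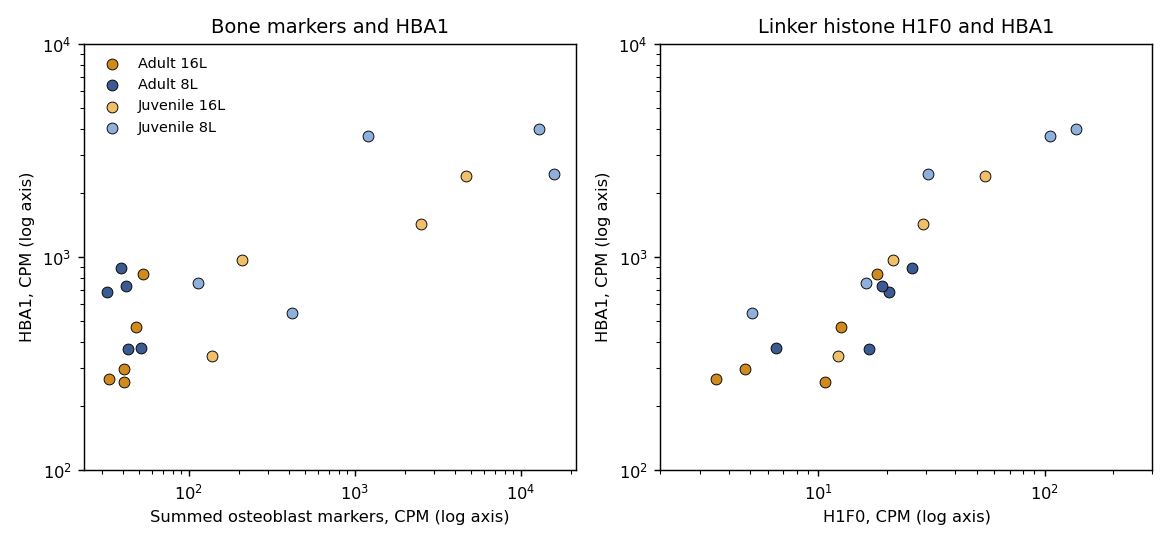
HBA1 in CPM against the summed osteoblast markers and against H1F0 in CPM for 19 birds by group (log axes), with each point 1 bird. The adults lay near 41.1 CPM of osteoblast markers over the full adult range of HBA1 (258 to 893 CPM). H1F0, chosen as the gene most like the chains, was highest in the 2 birds with the most HBA1 (106 and 137 CPM, from 11 and 58 counts).

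Of 5783 genes searched, the one whose log2 CPM was most like the mean of HBA1, HBAD and HBBA was H1F0 (r = 0.90 over 19 birds, 0.81 within adults and 0.91 within juveniles). H1F0 is the symbol of a linker histone of cells that have stopped dividing, and its relative H5 packs the chromatin of bird red cells. It had 3.51 to 25.9 CPM in adults and 5.07 to 137 CPM in juveniles. These levels rested on few counts, 4 to 29 a library in adults and 1 to 58 in juveniles. The age difference of H1F0 over both photoperiods was 1.67 ± 0.50 (log2 ± SE, edgeR, adjusted p = 0.103). The next 9 were COL5A1, ACTN1, UQCR10, COL1A2, COL1A1, CTSK, COL5A2, COL11A1 and GPX1, with r of 0.80 to 0.86. Among them are 5 collagen genes of bone and connective tissue and CTSK, the collagen-cutting protease of osteoclasts. Within adults r was -0.50 for COL1A2, -0.37 for CTSK, 0.10 for COL1A1, 0.20 for COL5A2, 0.32 for ACTN1, 0.48 for COL5A1, 0.50 for UQCR10, 0.52 for GPX1 and 0.57 for COL11A1, and within juveniles it was 0.73 to 0.94 for these 9. Adults had few counts of 2 of them, with COL1A1 at 12 and 10 counts in all 16L and all 8L adults and CTSK at 8 and 4. HBE1 itself had r of 0.88 over 19 birds, CA2 0.79 and SLC4A1 0.53. These are descriptions over libraries that share scaling.

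Other red cell genes gave no call between ages, from few genes tested. Of 47 genes of heme synthesis, the red cell membrane and red cell transcription, 32 were in the table and 8 had enough counts to test over both photoperiods. The calls were 0 of 8, with 143 of 7165 for all genes in either direction, and the smallest unadjusted p of the 8 was 0.0849. Their median log2 difference was 0.44 against -0.18 for all genes. TFRC, which takes up iron-bound transferrin, had 0.94 ± 0.52 and ANK1, which anchors SLC4A1 to the membrane skeleton, had 1.27 ± 0.81 (edgeR, adjusted p 0.464 and 0.551). UROS, an enzyme of heme synthesis, had 0.60 ± 0.48. BPGM (-0.79 ± 0.48), which makes 2,3-bisphosphoglycerate in mammals, EPB41 (-0.70 ± 0.49), a membrane skeleton protein, and BCL11A (-0.72 ± 0.48), which represses fetal globin in humans, had negative values. FTH1, the ferritin heavy chain, had 0.28 ± 0.25. Group means were 364.6 to 798.5 CPM for EPB41 and 641 to 1068 CPM for FTH1. The part of other cells of the gland in the values of these listed genes was not tested. Under 16L alone 0 of 7 were called (87 of 6641 for all genes) with a median of 0.16, and under 8L 0 of 5 (8 of 5106) with a median of -0.04. The globin symbols HBE and HBBR, looked up after the values were seen, had 7 and 5 counts over all 19 libraries.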

How the data were processed

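The deposited table held estimated counts per transcript, made by the authors with Oxford Nanopore PCR-cDNA barcoding, guppy, Porechop, Filtlong, minimap2 and Salmon. It was not normalized, and tool versions are not given in the sources used here. Between 99.26% and 99.61% of the values in a library were whole numbers. Transcripts of 1 symbol were summed and rounded. None of the listed transcripts was found among 49197 quail RefSeq transcripts, with or without version numbers. Of the 6 member symbols 1 was in that quail listing. The paper names a quail genome as its reference, so which annotation the reads were counted on was not known. No sequence or position is given, and how reads of similar chains were divided was not known. Genes passed filterByExpr (minimum count 10, total 15) and were modelled in R 4.3.3 by edgeR 4.0.16 with limma 3.58.1 (glmQLFit with legacy=TRUE, TMM factors, Benjamini-Hochberg) on the libraries of each comparison. Across photoperiods or ages the other factor was a term. Count ratios were compared by exact two-sided permutation and relations by permutation (scipy 1.17.1), and intervals are Clopper-Pearson. Alternatives were DESeq2 1.42.0, RLE factors, TMM without red cell genes, no filter, a replicate block, legacy=FALSE, fewer libraries, listed males only and all 4 groups together. Counting the highest transcript and leaving out the 4 juveniles richest in bone transcripts were chosen after seeing the data. Named genes were all members, up to 8 tested red cell genes by p, of which 1 is not reported here, and the 10 most alike. Members, lists and tests were chosen with earlier results of these data known. Each replicate was a separate bird.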

Additional observations from a re-analysis of the deposited data

Results flagged for a closer look

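In 56 groups of 4 or 5 birds, 5 held a bird set apart from the rest by Dixon's criterion. Chance alone would do so in about 1 of 20 independent groups. These groups were levels and ratios from the same birds and counts and were not independent, so the 2 rates cannot be compared directly. In 4 of the 5 the bird was adult 8L replicate 2, whose library had 128509 counts. Its SLC4A1 was 6.47 CPM, from 1 count, and its CA2 was 71.2 CPM, from 11 counts. Its log2 ratio of HBE1 to HBBA was -5.09 and that of HBE1 to the other 3 chains was -6.53, both from 3 HBE1 counts. In the fifth, juvenile 8L replicate 2 had a log2 ratio of HBBA to HBA1 of -1.17, the lowest of the 8L juveniles. The same bird had the highest HBE1 share and was the only 8L juvenile listed as female (307 HINTW counts).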

How the results depend on the processing

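The replicate numbers paired no birds, since the correlations of same-numbered birds' deviations were -0.103 to 0.091. With the replicate block the age calls numbered 0 genes and 0 members under 16L (HBE1 6.85, adjusted p 0.323) and 1 gene and 0 members under 8L (HBE1 6.15, adjusted p 0.548), and over both photoperiods HBE1 stayed called (edgeR). The block called 1 gene between photoperiods in adults and 0 with ages together. It turned the sign of these uncalled values: SLC4A1 by photoperiod in adults (-0.16), juveniles (0.64) and both ages (0.037), HBBA in juveniles (0.21), the interactions of HBA1 (0.22), HBAD (0.32), HBBA (0.48) and SLC4A1 (0.12), and, with birds paired by number, HBAD/HBA1 by photoperiod in juveniles (0.047). Without the block 87 genes were called by age under 16L, 8 under 8L and 143 over both photoperiods.

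With DESeq2 these were 187, 107 and 399, without a filter 183, 135 and 364, and in listed males 24, 49 and 319. All 4 groups together gave 29 and 55 within photoperiods, and libraries of at least 200000 counts (deep libraries) 136 and 3. RLE factors gave 4 under 8L, and the highest transcript 37 under 16L. Leaving out the 4 bone-rich juveniles gave 136 under 16L, the same fit as the deep libraries. Both left out juvenile 16L replicates 1 and 2, so depth and bone transcripts cannot be told apart there. Members called under 8L were 4 with DESeq2 (HBE1, HBA1, HBAD and SLC4A1) and 2 in listed males. Over both photoperiods they were 1 in deep libraries, 2 without juvenile 8L replicates 1 and 5 (HBE1 and HBAD) and 1 without the 4 bone-rich juveniles. CA2 was called there with DESeq2 (adjusted p 0.0250) and in listed males (edgeR, adjusted p 0.0439), and HBBA was lost without a filter (adjusted p 0.0508) and with the block (0.0761). Between photoperiods in adults 2 genes were called, against 10 with DESeq2, 5 without a filter, 1 with all groups together and 4 with the highest transcript. In juveniles all groups together gave 2. Both ages together gave 0 in deep libraries and 2 with the highest transcript. For the interaction DESeq2 gave 7, legacy=FALSE 1, deep libraries 5 and the highest transcript 1. The causes were not tested.

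Leaving out 1 library, members called by age ranged from 0 to 2 under 8L and 2 to 5 over both photoperiods. Genes called ranged from 25 to 84 under 16L, 0 to 49 under 8L, 86 to 207 over both, 1 to 4 by photoperiod in adults, 0 to 2 with both ages and 0 to 3 for the interaction. The ratio of HBE1 to the other 3 chains ranged from 4.18 to 5.03 under 16L and 3.97 to 4.66 under 8L. Uncalled values that changed sign ranged as follows. By photoperiod in adults these were HBAD/HBA1 (-0.14 to 0.14), SLC4A1 (-0.23 to 0.45) and CA2 (-0.42 to 0.038). In juveniles they were HBAD/HBA1 (-0.18 to 0.18), CA2/4 chains (-0.81 to 0.067), SLC4A1/4 chains (-0.034 to 1.21) and SLC4A1 (-0.80 to 0.40), and with both ages SLC4A1 (-0.41 to 0.25). Interactions were HBE1 (-0.72 to 0.80), HBA1 (-0.82 to 0.10), HBBA (-0.61 to 0.31) and SLC4A1 (-1.16 to 0.081). By age SLC4A1/4 chains ran from -0.39 to 0.68 under 16L and -0.43 to 0.82 under 8L.

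Other sign changes were also in uncalled values. The highest transcript gave SLC4A1/4 chains of -0.037 by age under 8L and -0.063 by photoperiod in adults. Deep libraries gave 0.44 for HBAD/HBA1 and 0.19 for CA2/4 chains in juveniles by photoperiod, 0.038 for CA2 in adults and -1.81 for the HBE1 interaction. Without the 4 bone-rich juveniles HBAD/HBA1 (0.38) and CA2/4 chains (0.58) turned by photoperiod, and SLC4A1/4 chains was -0.46 by age under 8L. Without juvenile 8L replicates 1 and 5 HBBA (0.019) and SLC4A1 (1.04) turned in juveniles, SLC4A1 with both ages (0.51), and the interactions of CA2 (0.076), HBA1 (0.16), HBBA (0.47) and SLC4A1 (0.83). In all, 1774 alternative values were computed and 58 changed sign. Counts of 0 to 5 for HBE1 in adults and totals under 200000 counts limit the precision of the adult HBE1 level and of single juveniles.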
